A study of Mus musculus with 30 samples.

Results

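The genes described here encode the CEP proteins of the centrosome, the augmin subunits (Haus) and the subunits of the gamma-tubulin complex (Tubgcp). They were taken by symbol: all genes whose mouse symbol begins with Cep, Haus or Tubgcp followed by a digit, of which there were 52 among 46078 genes in the table, with no pseudogene among them. They comprise 39 Cep, 8 Haus and 5 Tubgcp symbols, and 49 are protein-coding, the other 3 being noncoding transcripts named after Cep83 and Cep112. RNA was measured by RNA-seq in C2C12, an established line of mouse myoblasts, kept in the growing state in medium with 20% serum. After 15 minutes with a Hoechst dye, which binds DNA, cells were separated by DNA content into a G1, an S and a G2/M fraction. No genetic change or drug is named for any fraction, and the fractions are of 1 cell line. RNA-seq gave 6 columns of counts, 2 per fraction, and the 24 ChIP-seq samples of the series were not analysed here.

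The centrosome is built around a pair of centrioles and is the main site from which animal cells grow microtubules. Centrioles are copied once per cell cycle, beginning around the entry into S phase, and the surrounding pericentriolar material grows before mitosis. Microtubules start from ring complexes of gamma-tubulin held by the Tubgcp proteins, and in the spindle augmin attaches such rings to the side of existing microtubules. In non-dividing cells the older centriole can instead anchor a primary cilium through its appendages, so several CEP proteins are known from cilium biology.

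Of the 52 genes, 44 reached 10 CPM (fragment counts scaled to the size and composition of each library) in at least 1 fraction, 6 had fragments but stayed below that level, and 2 had no fragment in any column. The columns of a fraction held between 16109055 and 18103769 fragments. The sample titles number them as replicates and the column headers end in L1 and L2, but no label says that they came from separate cultures. Within a fraction they differed little beyond counting noise, and they were summed to 1 library per fraction. Intervals are therefore 95% intervals for counting error only, no difference has a replicate check, and no p-value is given between fractions. Only S samples are titled with a lot, so lot and fraction cannot be told apart in comparisons with S. Of 4 G2/M marker genes (Plk1, Aurka, Ccnb1 and Cenpf) the summed levels in G1, S and G2/M were 204.6, 788.5 and 1390 CPM, whereas 3 G1/S genes (Cdc6, Ccne2 and Pcna) summed to 633.5, 210.9 and 215.1 CPM. All 5 myoblast markers had fragments in every fraction, with summed levels of 710.8 to 765.7 CPM, although Myod1 stayed between 5.74 and 6.65 CPM. The 4 markers of other cells summed to at most 0.80 CPM. The 4 myotube markers summed to 9.23, 0.167 and 11.2 CPM in G1, S and G2/M, with Acta1 at 216, 5 and 336 fragments and Myog at 80, 0 and 42. They were thus nearly absent from S, and whether the fractions differ in cell make-up was not tested. The 4 markers of multiciliated cells, which make many centrioles, summed to at most 2.26 CPM. Foxj1, Mcidas and Deup1 had 0 fragments throughout, while Ccno had 6, 81 and 0 in G1, S and G2/M.

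In the S library, 5 genes of the set exceeded their G1 level by 2-fold or more and 3 lay below it by 2-fold or more, of 42 that reached 10 CPM in either fraction. The genes higher in S were Cep192, Cep135, Cep55, Cep295 and Cep350, and those lower were Cep95, Cep44 and Cep152. Among all 8773 genes measured in the same way, 8.59% were higher in S by this measure and 8.62% lower, against 5 and 3 of 42 here, so the share of the set past this limit (19.0%) was near that of all genes (17.2%). The middle of the set lay on the side of S: 28 of 42 genes were higher in S, with a median log2 ratio of 0.30 against -0.01 for all genes. Genes of similar exon length, from 3672 to 8027 bases, had a median of 0.05. In a bulk sample, fewer cells that carry an RNA and less of that RNA per cell cannot be told apart.

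Between G2/M and S the set had no common direction. Of 44 measured genes, 3 (Cep44, Cep19 and Cep89) had at least 2-fold more RNA in G2/M, where 7.13% of all 8752 genes were, and 3 (Haus8, Tubgcp2 and Haus2) were at least 2-fold lower, where 6.60% of all genes were. The median was -0.04, with 21 genes above 0 and 23 below. Cep genes and complex subunits differed in their middle values, at 0.22 for 32 Cep genes, -0.64 for 7 augmin subunits and -0.40 for 5 gamma-tubulin complex subunits, a difference that was not tested.

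The comparison of G2/M with G1 gave the largest counts. Of 43 measured genes, 7 exceeded G1 by at least 2-fold in G2/M (Cep295, Cep55, Cep112, Cep135, Cep19, Cep192 and Cep128), where 10% of all 8850 genes were, and 5 were at least 2-fold lower (Haus8, Haus4, Tubgcp2, Haus2 and Cep162), where 9.82% were. Together these 12 genes were 27.9% of the set, against 19.9% of all genes. Of the 31 Cep genes among the 43, 7 were on the higher side and 1 on the lower. Of the 7 augmin subunits 3 were on the lower side, as was 1 of the 5 gamma-tubulin complex subunits, and the difference between families was not tested. The median log2 ratio was 0.34, against -0.004 for all genes and 0.01 for those of similar exon length. The 3 comparisons share libraries and are not separate evidence.

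When columns were instead entered as replicates, a fit that compares only these libraries, most of the set passed an FDR of 0.05, as did most genes. With edgeR's quasi-likelihood test, 27 of 50 tested genes of the set were higher and 18 lower in S than in G1, where 84.7% of all 12489 genes were called. For G2/M against S it gave 21 higher and 23 lower (83.6% of all genes called), and for G2/M against G1 27 higher and 19 lower (84.7% of all genes called). The shares called by DESeq2 over all genes were 77.8%, 75.2% and 78.2% in that order, and those of the set are given in the closing section. Counts at 2-fold are therefore used here.

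**Figure D1:**
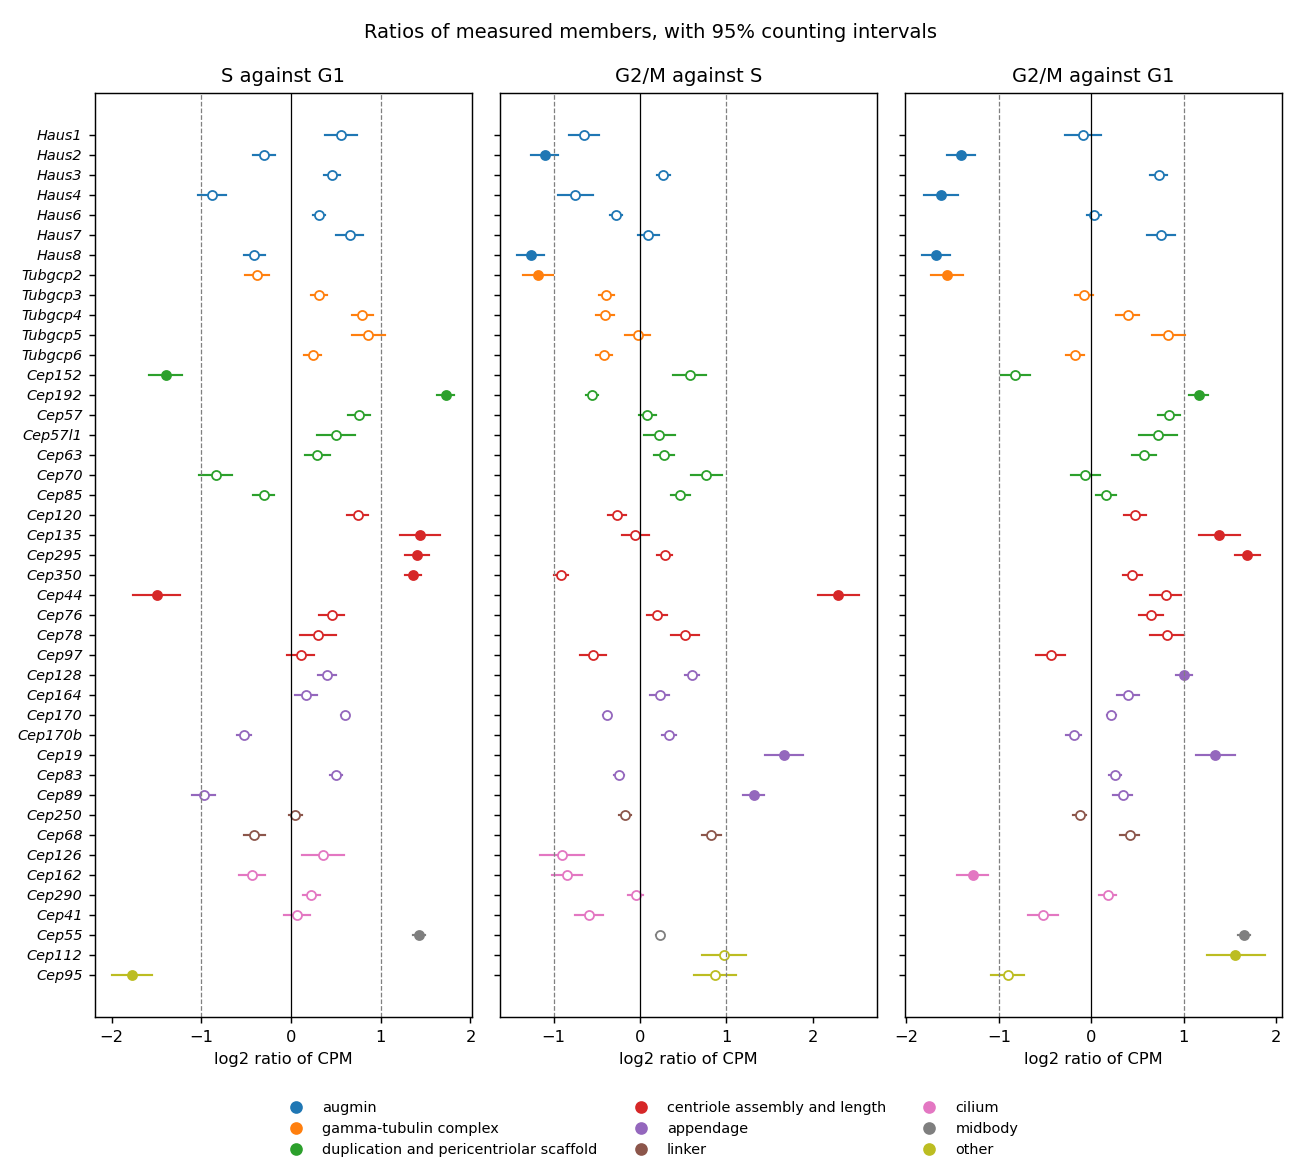
Log2 ratio of CPM (x axis) for the genes of the set that reached 10 CPM in at least 1 fraction, 1 left out (rows, coloured by role), in 3 panels for S against G1, G2/M against S and G2/M against G1. Bars are 95% intervals for counting error, filled points are at least 2-fold different, dashed lines mark a log2 ratio of 1 and -1, and a gene below 10 CPM in both fractions of a panel has no point there. Haus2, Haus4, Haus8 and Tubgcp2 lie left of the dashed line in the G2/M against G1 panel, while Cep55, Cep192, Cep135 and Cep295 lie right of it.

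Ratios between these libraries spread more widely at low levels, and of the 42 genes measured between S and G1 only 13 had a mean of 50 CPM or more. At a mean of 10 to 20 CPM, 33.7% of all genes were past 2-fold in S against G1 and 37.6% in G2/M against G1, whereas at 50 CPM and above the shares were 5.21% and 6.54%. In that upper class, 3 of 13 genes of the set (Cep55, Cep192 and Cep350) were at least 2-fold higher in S than in G1, where 3.05% of all genes were, and 0 were lower, where 2.15% were. Likewise 3 of 10 (Cep55, Cep192 and Cep128) exceeded G1 by at least 2-fold in G2/M, where 3.79% of all genes were, and 0 were lower, where 2.75% were. Between G2/M and S, 0 of the 14 genes in that class passed the limit in either direction, against 0.973% of all genes upward and 1.38% downward. At a mean of 20 to 50 CPM, the set had 1 of 19, 3 of 14 and 4 of 19 genes past the limit in the 3 comparisons, against 17.4%, 13.3% and 20.4% of all genes. At 10 to 20 CPM it had 3 of 8, 3 of 13 and 4 of 13, against 33.7%, 29.1% and 37.6%.

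**Figure D2:**
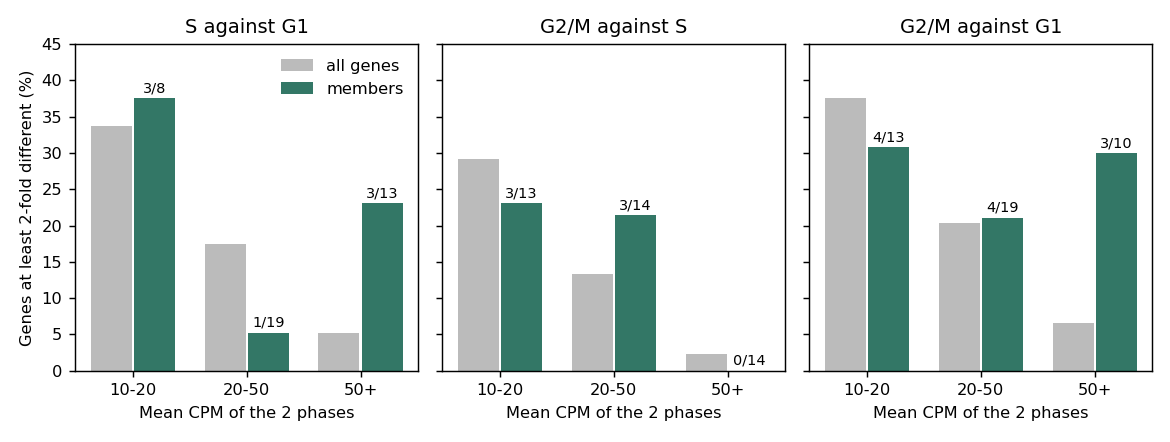
Percent of genes at least 2-fold different in either direction (y axis) by mean CPM of the compared fractions (x axis), for all genes (grey) and the centrosome, augmin and gamma-tubulin complex set (green), with the number of set genes past the limit over the number in the class above each green bar. Among genes at 50 CPM or more the set stands at 23.1% against 5.21% in S against G1, at 0 against 2.35% in G2/M against S, and at 30% against 6.54% in G2/M against G1; a few set genes with a mean below 10 CPM are not drawn.

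Stretches of promoter DNA from Cep128, Cep152, Haus4 and Cep55 are shown because these genes differed between fractions and the stretches hold letters of motifs known from cell cycle promoters. Capitals mark matches on either strand. CCAAT, which reads ATTGG when it lies on the other strand, is the box known to bind NF-Y. TTTGAA, which reads TTCAAA there, is the core of the CHR element known from G2/M genes. GCGGGAA, which reads TTCCCGC there, is a form of the E2F site. The first 3 are the 250 bases before the RefSeq start site in GRCm38.p6, and the last is a stretch of 30 bases at Cep55, all written 5′ to 3′ on the strand of the gene.
Cep128: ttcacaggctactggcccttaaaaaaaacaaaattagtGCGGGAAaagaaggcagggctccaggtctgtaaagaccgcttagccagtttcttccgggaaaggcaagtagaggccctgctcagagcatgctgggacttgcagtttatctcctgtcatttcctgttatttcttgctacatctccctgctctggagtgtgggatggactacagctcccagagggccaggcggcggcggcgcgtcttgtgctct
Cep152: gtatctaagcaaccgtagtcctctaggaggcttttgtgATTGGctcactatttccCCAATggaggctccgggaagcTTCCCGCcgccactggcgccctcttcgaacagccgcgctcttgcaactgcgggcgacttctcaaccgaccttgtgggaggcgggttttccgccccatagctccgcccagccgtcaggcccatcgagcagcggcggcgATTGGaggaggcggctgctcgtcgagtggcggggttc
Haus4: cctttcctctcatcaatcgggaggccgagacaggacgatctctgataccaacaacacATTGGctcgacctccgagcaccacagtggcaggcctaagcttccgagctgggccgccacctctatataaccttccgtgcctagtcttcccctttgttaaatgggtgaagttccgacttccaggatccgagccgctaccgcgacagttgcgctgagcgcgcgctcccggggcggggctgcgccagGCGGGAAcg
Cep55: acagccgcgggaTTCAAActcccggaagcg
The Cep128 stretch (chr12:91384410-91384659, minus strand) held 1 GCGGGAA. The Cep152 stretch (chr2:125625114-125625363, minus strand) held 3 CCAAT and 1 GCGGGAA in either orientation. The Haus4 stretch (chr14:54554362-54554611, minus strand) held 1 CCAAT and 1 GCGGGAA, the latter starting 9 bases before the start site. The Cep55 stretch (chr19:38054996-38055025, plus strand) held 1 TTTGAA in its reverse form, 33 bases before the more downstream of its RefSeq start sites.

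Across the set, 42 of 52 genes had at least 1 promoter window of 300 bases in the RefSeq table, 50 windows in all, some of which overlap. Each window runs from 250 bases before a start site to 50 bases after it. GCGGGAA was found in 14 of these 50 windows (28.0%), against 4.6% of 32817 windows of all genes and 8.79% of 9145 windows of genes at 10 CPM or more. TTTGAA was found in 11 windows (22.0%), against 17.9% of all and 11.6% of those at 10 CPM or more, and CCAAT in 20 (40.0%), against 37.4% and 37.8%. Of the genes past 2-fold between G2/M and G1, TTTGAA was in 4 of 9 windows (of 6 genes) on the higher side. On the lower side it was in 1 of 5 windows (of 4 genes), numbers too small to compare. The Cep55 match is counted in both of its overlapping windows. Among the windows on the higher side, only the more downstream window of Cep55 held its TTTGAA match before the start site. A match is only a match of letters, and no binding was measured here.

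Augmin is a complex of 8 subunits, and its genes did not share a pattern. Haus8, the subunit that binds microtubules, lies on chromosome 8 from 71248561 to 71272934 and stood at 43.7 and 42.3 CPM in the G1 columns, 32.5 and 32.2 in S, and 13.1 and 13.8 in G2/M. G2/M was lowest, 3.19-fold below G1 at a log2 ratio of -1.67 (interval -1.83 to -1.53). Haus4 stood at 26.9 and 28.9 CPM in G1, 14.6 and 15.8 in S, and 9.40 and 8.70 in G2/M, which is 3.09-fold below G1 (log2 ratio -1.63, interval -1.81 to -1.44). For Haus2 the columns gave 35.6 and 35.6 CPM in G1, 27.7 and 29.97 in S, and 13.8 and 13.0 in G2/M, 2.65-fold below G1 (log2 ratio -1.41, interval -1.56 to -1.25). All 3 genes had the same order of fractions, G1 above S above G2/M. Against S, the G2/M library was 2.40-fold lower in Haus8 and 2.15-fold lower in Haus2, and in Haus4 1.68-fold lower.

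The other measured augmin subunits had other orders. Haus3 stood at 51.1 and 47.3 CPM in G1, 68.0 and 67.2 in S, and 82.3 and 80.8 in G2/M, 1.66-fold above G1. Haus7 stood at 17.8 and 16.9 CPM in G1, 28.0 and 26.7 in S, and 29.3 and 29.2 in G2/M, with an interval of -0.03 to 0.22 between G2/M and S that includes 0. Haus6 stood at 90.8 and 89.5 CPM in G1, 109.7 and 113.6 in S, and 93.4 and 90.6 in G2/M. Its G1 and G2/M values overlapped and S was highest. Haus1 had the same shape, with 13.4 and 13.2 CPM in G1, 18.6 and 20.4 in S, and 12.3 and 12.6 in G2/M, and its interval between G2/M and G1 (-0.28 to 0.11) includes 0.

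Haus5 was almost absent from the counts, at 3 fragments for G1, 2 for S, but 151 for G2/M, the last at 4.16 CPM. Of its 3455 exon bases, 56.5% are also exons of Gm21982 on the same strand in the deposited annotation, so the level of Haus5 is uncertain. Per kilobase of exon, the 7 measured augmin genes ranged from 8.14 CPM (Haus8) to 17.6 CPM (Haus4) in G1, a ratio of 2.16. In S the range was 6.13 CPM (Haus8) to 19.4 CPM (Haus1), a ratio of 3.16, and in G2/M it was 2.55 CPM (Haus8) to 21.1 CPM (Haus3), a ratio of 8.26. Among these 7 genes the levels were thus furthest apart in the G2/M library. Haus5, left out for its low and uncertain level, stood at 0.027, 0.016 and 1.205 CPM per kilobase in G1, S and G2/M. It was the lowest augmin gene in each library, and with it that order does not hold.

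**Figure D3:**
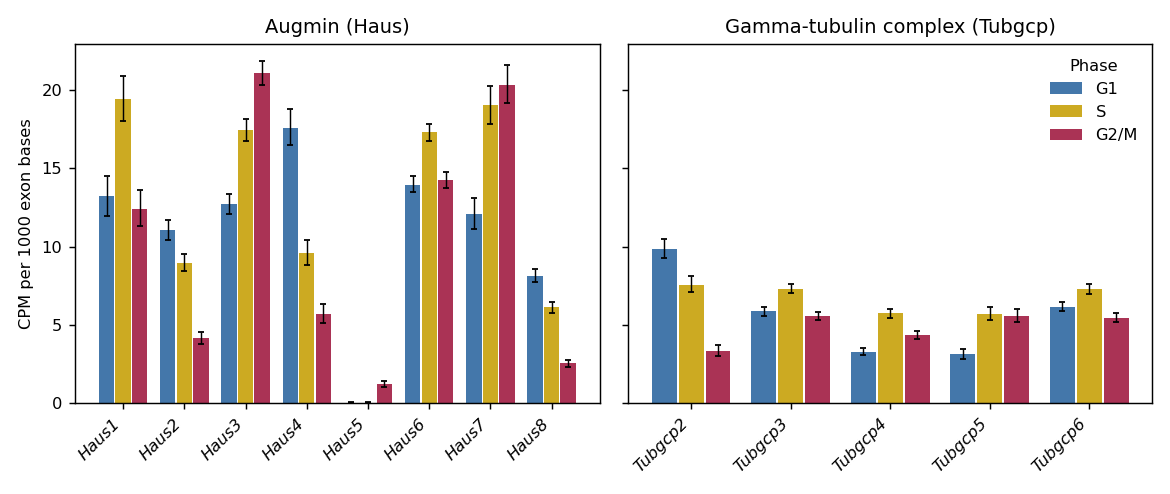
Level in CPM per kilobase of exon (y axis) of the 8 augmin genes (left) and the 5 gamma-tubulin complex genes (right) in the G1, S and G2/M libraries, with 95% Poisson intervals for counting error. Haus2, Haus4, Haus8 and Tubgcp2 are lower in G2/M than in G1, Haus3 and Haus7 are higher in S and G2/M than in G1, and Haus5 is close to 0.

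In the gamma-tubulin complex, Tubgcp2 differed most, and was 2.95-fold lower in G2/M than in G1 and 2.27-fold lower than in S. Tubgcp2, which with Tubgcp3 forms the small gamma-tubulin complex, lies on chromosome 7 from 139995955 to 140036350 and stood at 31.5 and 29.4 CPM in G1, 22.3 and 24.4 in S, and 10.6 and 10.01 in G2/M. The log2 ratio of G2/M to G1 was -1.56 (interval -1.74 to -1.39). Its partner Tubgcp3 stood at 49.4 and 51.4 CPM in G1, 65.3 and 59.99 in S, and 48.6 and 47.1 in G2/M, with an interval of -0.17 to 0.02 between G2/M and G1.

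The subunits found only in the large ring complex stayed within 2-fold in every comparison. Tubgcp4 stood at 27.1 and 28.4 CPM in G1, 48.5 and 47.9 in S, and 36.3 and 36.7 in G2/M. Tubgcp5 stood at 11.2 and 11.9 CPM in G1, 19.7 and 22.2 in S, and 20.9 and 20.3 in G2/M. Tubgcp6 stood at 48.8 and 49.4 CPM in G1, 56.6 and 59.6 in S, and 43.6 and 43.4 in G2/M. Tubgcp4 and Tubgcp5 were lowest in G1, while Tubgcp6 was lowest in G2/M. Antisense genes overlap 26.1% of the exon bases of Tubgcp4 and 12.5% of those of Tubgcp6, and the counting names no strand option. Per kilobase of exon the 5 genes spanned ratios of 3.15, 1.33 and 1.67 in G1, S and G2/M, so their levels were closest in the S library.

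Cep55 had the highest level of the set per kilobase of exon, at a mean of 59.3 CPM over the fractions. It encodes a protein known for recruiting the abscission machinery to the midbody at the end of cell division, and lies on chromosome 19 from 38055025 to 38074425 on the plus strand in GRCm38. Its columns gave 74.3 and 70.4 CPM in G1, 195.8 and 192.0 in S, and 223.5 and 232.2 in G2/M. S was 2.68-fold above G1 (log2 ratio 1.42, interval 1.35 to 1.49) and G2/M 3.15-fold above G1 (log2 ratio 1.66, interval 1.59 to 1.72). G2/M exceeded S by 1.18-fold. Its order of fractions, G1 below S below G2/M, was also that of the summed level of the 4 G2/M marker genes.

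Genes of centriole duplication and the pericentriolar scaffold went both ways. Cep192, a scaffold that recruits pericentriolar material and the duplication kinase Plk4, lies on chromosome 18 from 67800107 to 67885168. It stood at 35.2 and 33.8 CPM in G1, 117.3 and 110.5 in S, and 79.0 and 75.4 in G2/M, and S was 3.30-fold above G1 (log2 ratio 1.72, interval 1.63 to 1.82) and G2/M 2.24-fold above G1. Cep152, the other known scaffold for Plk4, lies on chromosome 2 from 125563088 to 125625113. It stood at 28.2 and 25.5 CPM in G1, 10.9 and 9.53 in S, and 14.6 and 15.8 in G2/M, so S was 2.63-fold below G1 (log2 ratio -1.40, interval -1.58 to -1.22). These scaffold genes thus lay on opposite sides in S.

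Cep63 and Cep57, which act with Cep152 around the centriole, stayed within 2-fold. Cep57 was 1.69-fold higher in S than in G1 and Cep63 1.23-fold higher. Cep63 was highest in G2/M, while for Cep57 the interval between G2/M and S (-0.01 to 0.18) includes 0. For Cep57l1, G2/M exceeded G1 by 1.65-fold. Cep70 and Cep85 were lowest in S, at 11.1 and 31.2 CPM, and antisense genes overlap 5.5% of the exon bases of Cep70. Cep131, a protein of centriolar satellites, reached at most 9.42 CPM, and Cep85l stayed below 10 CPM with 264, 202 and 23 fragments in G1, S and G2/M. Cep72 had 50 fragments in the G1 library, 1.56 CPM, and 0 in the others. With a floor of 3 fragments per library in place of 0, the floor was 0.0837 CPM for S and 0.0827 CPM for G2/M. The G1 value of Cep72 was 18.6-fold and 18.9-fold above these floors. From the counts without a floor, the counting intervals of S to G1 and of G2/M to G1 came as near to 0 as -3.87 and -3.88 on the log2 scale.

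Among genes of centriole assembly and length, 3 of 8 were at least 2-fold higher in S than in G1 and 1 (Cep44) at least 2-fold lower, against 8.59% and 8.62% of all genes. Cep295, needed to turn new centrioles into centrosomes, stood at 19.3 and 16.9 CPM in G1, 47.7 and 48.0 in S, and 59.9 and 56.6 in G2/M, 3.22-fold above G1 (log2 ratio 1.69, interval 1.56 to 1.82). An antisense gene overlaps 15.2% of its exon bases. Cep135, a protein of the centriole cartwheel, stood at 6.34 and 7.69 CPM in G1, 18.1 and 19.9 in S, and 18.2 and 18.4 in G2/M, and its S and G2/M columns overlapped. For Cep135 the S library was 2.71-fold above G1 (log2 ratio 1.44, interval 1.22 to 1.66) and that of G2/M 2.61-fold above it. Cep350, which stabilises centrioles and anchors microtubules, stood at 39.3 and 39.9 CPM in G1, 102.1 and 101.1 in S, and 54.2 and 53.7 in G2/M. For Cep350 S was 2.56-fold above G1 (log2 ratio 1.36, interval 1.27 to 1.45) and G2/M 1.88-fold below S, so its high level was in the S library.

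Cep44 had the opposite shape. This gene, needed for the conversion of centrioles to centrosomes, stood at 12.3 and 14.7 CPM in G1, 5.57 and 4.04 in S, and 22.6 and 24.6 in G2/M. The 4.92-fold step from S to G2/M (log2 ratio 2.30, interval 2.06 to 2.54) was the largest of any measured gene of the set in any comparison, at a level where wide ratios are common. The other 4 genes of this role stayed within 2-fold: Cep120, an elongation factor of centrioles, was 1.67-fold higher in S than in G1, Cep76 and Cep78 were highest in G2/M, and Cep97, a partner of the centriole cap protein Ccp110, was lowest there at 16.1 CPM.

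Of 7 measured appendage genes, G2/M exceeded S by at least 2-fold in 2 (Cep19 and Cep89) and G1 by at least 2-fold in 2 (Cep19 and Cep128), and 0 were 2-fold lower in either. Over all genes the shares on the higher side were 7.13% and 10%, and those on the lower side 6.60% and 9.82%. Cep128 lay at the limit. Cep19, a protein of the mother centriole, stood at 8.72 and 7.38 CPM in G1, 6.01 and 6.87 in S, and 20.0 and 20.8 in G2/M, so that G2/M was 3.17-fold above S (log2 ratio 1.67, interval 1.45 to 1.88) and 2.54-fold above G1. Cep89, a distal appendage protein, stood at 42.0 and 38.5 CPM in G1, 21.2 and 19.8 in S, and 49.6 and 52.3 in G2/M. Its S library was lowest, 1.96-fold below G1, just inside the 2-fold limit (log2 ratio -0.97, and -1.03 without the second G1 column or without the first S column), and 2.49-fold below G2/M (log2 ratio of G2/M to S 1.31, interval 1.19 to 1.44). Cep128, a subdistal appendage protein, stood at 46.2 and 44.4 CPM in G1, 59.5 and 60.1 in S, and 89.9 and 91.8 in G2/M. At 2.01-fold above G1 (log2 ratio 1.00, interval 0.92 to 1.09) it was just past the limit, and it dropped below it, to log2 ratios of 0.98 in each case, without the second G1 column or without the second G2/M column.

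The other appendage genes stayed within 2-fold. Cep83, which founds the distal appendages, had levels of 102.9, 145.6 and 122.9 CPM in G1, S and G2/M, and its mean of 41.5 CPM per kilobase of exon was second to that of Cep55. Cep170, a subdistal appendage protein, stood at 186.0, 282.6 and 216.3 CPM, and its paralogue Cep170b at 85.0, 59.1 and 74.5 CPM, so S was the highest fraction for the former and the lowest for the latter. Cep164, which docks vesicles for cilium formation, differed by no more than 1.31-fold between any fractions. The linker that ties the centrioles together differed little in Cep250, at 88.9, 91.7 and 81.4 CPM, and by 1.77-fold between S and G2/M in Cep68, which was highest in G2/M. An antisense gene overlaps 11.1% of the exon bases of Cep250.

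Of the 5 genes known mainly from the cilium, 0 differed 2-fold between G2/M and S. Over all genes the share was 13.7%, so 0 of 5 does not set these genes apart. All 5 log2 ratios of G2/M to S were below 0, as were those of 4335 of all 8752 genes, and the interval of Cep290 includes 0. Cep162, which acts at the base of the cilium, stood at 28.9 and 27.6 CPM in G1, 19.9 and 21.8 in S, and 12.01 and 11.2 in G2/M. It alone of the 4 cilium genes measured between G2/M and G1 was at least 2-fold lower in G2/M (2.44-fold, log2 ratio -1.28, interval -1.45 to -1.12), where 9.82% of all genes were. Cep290, a protein of the ciliary transition zone, stayed between 49.0 and 57.4 CPM, with an interval between G2/M and S of -0.14 to 0.04. An antisense gene overlaps 9.7% of its exon bases. Cep41 had 1.505-fold less RNA in G2/M than in S, and Cep126 reached 10.2 CPM in S only.

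The remaining genes of the set have no role given here. Cep95 stood at 23.2 and 19.8 CPM in G1, 6.97 and 5.65 in S, and 11.9 and 11.1 in G2/M, with the lowest ratio of S to G1 of the measured set (log2 ratio -1.77, interval -1.99 to -1.55). Without the first S column its ratio of G2/M to S, 0.87 on the log2 scale, passed 2-fold at 1.03, and without the second G1 column that of G2/M to G1, -0.90, did so at -1.01. Cep112 reached 10.5 and 10.7 CPM in G2/M, against 3.95 and 3.23 in G1 and 4.61 and 6.20 in S. It was 2.95-fold above G1 there (log2 ratio 1.56, interval 1.26 to 1.88), and its log2 ratio of G2/M to S, 0.97, passed 2-fold at 1.203 without the second S column. Below the 10 CPM minimum, Cep295nl had 234, 30 and 143 fragments in G1, S and G2/M. The noncoding Cep83os had 119, 273 and 38 fragments, and Cep112it and Cep112os1 had none.

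**Figure D4:**
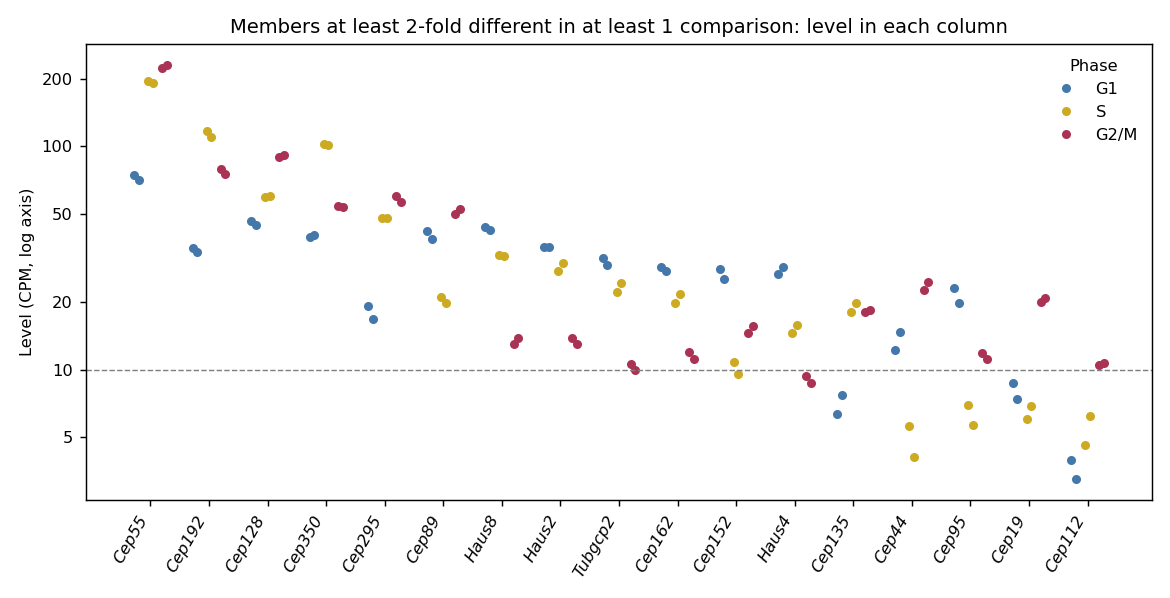
Level in CPM (log axis) of the 17 genes that were at least 2-fold different in at least 1 comparison, ordered by mean level, with 1 point for each of the 2 columns of G1, S and G2/M and a dashed line at 10 CPM. Columns of a fraction lie close together, Cep55 stands at 72.3 CPM in G1 and 227.9 CPM in G2/M, and Haus8, Haus2, Tubgcp2, Cep162 and Haus4 are lowest in G2/M.

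By the fraction with the highest level, the 44 measured genes split into 10, 17 and 17 for G1, S and G2/M, or 22.7%, 38.6% and 38.6%, against 36.5%, 30.3% and 33.3% of all 9071 genes measured. The lowest level was in G1 for 22 genes (50.0%, against 36.0% of all genes), in S for 9 and in G2/M for 13. At least 2-fold between the highest and lowest fraction was seen in 17 genes, or 38.6%, against 31.5% of all genes.

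A list of 33 related genes of the centrosome, which are not in the set, was described in the same way. In S against G1, 2 of 29 measured were past 2-fold on the higher side and 3 on the lower, together 17.2%, the same share as of all genes. Of 28 measured between G2/M and S, 2 were higher and 4 lower (21.4%, against 13.7% of all genes), and of 30 measured between G2/M and G1, 5 were higher and 4 lower (30%, against 19.9%). Their median log2 ratios were 0.34, 0.13 and 0.39 in that order. Gamma-tubulin itself, Tubg1, had levels of 15.85, 18.6 and 21.5 CPM in G1, S and G2/M, while Tubg2 had no fragment. The ring anchors Nedd1, Pcnt and Cdk5rap2 stayed within 2-fold, with Cdk5rap2 1.77-fold higher in G2/M than in G1.

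In the duplication pathway, the kinase Plk4 was low, with levels of 3.62, 9.82 and 5.60 CPM, and below the minimum in all comparisons. Sass6, the cartwheel protein it acts with, was 2.18-fold lower in G2/M than in S, and the cap protein Ccp110 3.87-fold lower, at 15.0 against 58.0 CPM. Rttn and Spice1, which act in centriole growth and duplication, were 4.20-fold and 2.14-fold higher in S than in G1. For Poc5, a protein of the distal centriole, G2/M exceeded G1 by 2.27-fold.

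Genes of appendages, linkers and anchoring also went both ways. For Odf2, an appendage base protein, G2/M exceeded G1 by 2.32-fold, and for Nek2, the kinase that splits the linker, by 2.21-fold at 333.2 against 150.9 CPM, while for Cntrl, a subdistal appendage protein, G2/M exceeded S by 2.44-fold. Crocc, the linker fibre protein rootletin, was 6.30-fold lower in S than in G1 and 7.47-fold lower in G2/M than in G1. The linker protein gene Lrrc45 was 4.04-fold lower and Ninl, a ninein-like anchoring protein, 4.94-fold lower in G2/M than in G1. Mzt2, a small subunit of the gamma-tubulin ring, exceeded its S level by 3.84-fold in G2/M, at 10.5 CPM. Crocc and Lrrc45 were thus highest in G1, and Nek2 was highest in G2/M.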

How the data were processed

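Deposited values are counts of fragments per gene over exons, which the authors made from paired reads with featureCounts 1.5.0-p3; the annotation was Ensembl GRCm38, per the file headers. No option for strand or for reads with several places is named there. HISAT2 2.1.0 and SAMtools 1.6 appear, without a role, in the submitters' processing notes. A supplied table gave symbols for 45143 of 46078 genes (98%), and RefSeq GRCm38.p6 gave promoter sequences.

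The 2 columns of each fraction were first compared by chi-square over genes with at least 10 fragments. The statistic per degree of freedom came to 1.00, 1.03 and 1.15 in G1, S and G2/M (1.04 in G2/M without the gene model Gm17082). Per gene of the set it was 1.43, 1.27 and 0.962. Strictly, over all genes only the G1 columns did not differ beyond sampling noise, whereas for the set the value was largest in G1. The excess was small and was judged to be about counting noise, so columns were summed to 1 library per fraction, with no test between fractions. Summing was planned for columns that differ by about counting noise, and edgeR's quasi-likelihood test over all columns for a larger difference. Read strictly, the S and G2/M values called for that test as the main fit, so summing departed from the plan. The edgeR fit is given as an alternative.

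TMM factors (0.990, 1.00 and 1.01) were computed over 12832 genes with edgeR 4.0.16 under R 4.3.3. Counts under 3 were set to 3 for ratios. A difference was counted if the ratio reached 2-fold and 1 of the compared libraries reached 10 CPM. Ratios carry exact binomial and levels exact Poisson 95% intervals, for counting error only, and PCR copies are not independent molecules. The calculation was tested on simulated data. DESeq2 1.42.0 and edgeR's test over 6 columns, other scalings, other level limits and leaving out columns were tried as alternatives. Named with values by column are genes of the set past 2-fold in at least 1 comparison and all measured Haus and Tubgcp genes; others are named as examples, and related genes where past 2-fold or central to the pathway. The genes and lists were chosen with earlier results of these data known. Values of 1 gene of the set are not reported here by name, and it is included in the counts.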

Additional observations from a re-analysis of the deposited data

How the results depend on the processing

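Under library size scaling, DESeq2 size factors or leaving out any 1 column, each count of genes past 2-fold stayed within 1.5 times its value. Of 584 ratios of named genes under these settings, 583 stayed inside their counting intervals, 1 moved outside and 0 reversed. Some of the 584 leave out a column of the fraction not compared and could hardly move. The others reuse the counts that gave the intervals, so staying inside was likely beforehand and is no replicate check. The limit of 2-fold was crossed 7 times, by Cep128, Cep89, Cep95 and Cep112, in each case on leaving out 1 column.

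Without a level minimum, the genes lower in S than in G1 were 5 (of 50) in place of 3, and between G2/M and S 5 were higher and 5 lower (of 49) in place of 3 and 3. For G2/M against G1, 8 were lower in place of 5, with a median log2 ratio of 0.20 in place of 0.34. The added genes lie below 10 CPM in both compared libraries. Shares over all genes were not computed without a minimum, so these larger counts are no result about the set. At a mean of at least 50 CPM, 3 were higher and 0 lower in S than in G1, 0 higher and 0 lower in G2/M than in S, with a median of -0.21, and 3 higher and 0 lower in G2/M than in G1. Leaving out 7 genes that share at least 5% of their exon bases with another gene, chosen after seeing the data, kept every count within 1.5 times.

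Treating the columns as replicates compares these libraries only. At an FDR of 0.05 of 50 genes tested, edgeR's quasi-likelihood test gave 27 higher and 18 lower in S than in G1, 21 higher and 23 lower in G2/M than in S, and 27 higher and 19 lower in G2/M than in G1, where it called 84.7%, 83.6% and 84.7% of all genes. With the replicate number as a replicate block the counts were 27 and 18, 21 and 23, and 27 and 19. Same-numbered columns did not deviate together (r of -0.0154 to 0.0222 across genes). Columns of a fraction differed by little more than counting noise, so this cannot show whether same-numbered columns share more than a number. DESeq2 gave 24 and 17, 19 and 23, and 26 and 19.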
